A study of Mus musculus with 3 samples.

Results

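The T-box genes Tbx2, Tbx3, Tbx4, Tbx5, Tbx15 and Tbx18 and the homeobox gene Pitx1 were examined for chromatin occupied by LMX1B in the mouse limb bud. These 7 genes, of 21757 protein-coding genes, were chosen by name and not by a rule on a measured value. The choice was made with earlier results of these data known, so the set is not independent of them. Their intervals (peaks) are those whose midpoint lies in the domain of a gene. A domain is the gene body plus its flanks, up to the neighbouring protein-coding gene on either side and never more than 1 Mb from the body. By this rule 47 of 4501 intervals of the validation ChIP and 21 of 1287 intervals of the first ChIP belonged to the 7 genes.

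Chromatin immunoprecipitation and sequencing was done on limb buds of C57BL/6 embryos at embryonic day 12.5, with the polyclonal anti-LMX1B antibody BMO8. The validation ChIP was labelled as a validation of that antibody, and its track names no genotype. The first ChIP was marked wild-type in its track name. Buds of forelimb and hindlimb went into the same pools, 48 per run in 2 runs, so no interval can be assigned to the forelimb or the hindlimb. The input sample, chromatin of wild-type and mutant embryos pooled, had no interval list and was not used. Each ChIP is 1 sample, with no spread between replicates and no test between the samples. Interval lists hold no transcript or read counts, so neither the tissue label nor the sequencing depth could be checked.

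T-box proteins are transcription factors that share a DNA-binding T-box domain, and many act as dose-sensitive regulators of limb and heart development. In the limb, Tbx5 starts forelimb outgrowth, while Pitx1 and Tbx4 act in the hindlimb, Pitx1 giving hindlimb character. Tbx2 and Tbx3 encode repressors that are expressed along the anterior and posterior limb margins. Tbx15 and Tbx18 are close relatives that are expressed in limb mesenchyme. LMX1B is the LIM homeodomain factor that gives the limb its dorsal side.

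Tbx18 had the most intervals of the 7 genes. Its domain held 23 validation and 11 first-ChIP intervals, that is 48.9% and 52.4% of all intervals assigned to the genes. Tbx15 followed with 13 validation intervals but only 1 first-ChIP interval, and Tbx4 had 4 validation and 5 first-ChIP intervals. Tbx3 had 5 and 1, Tbx5 had 2 and 2, Tbx2 had 2 and 0, and Pitx1 had 0 and 1, validation ChIP before first ChIP. The 7 domains overlap at 2 places. A validation interval between Tbx2 and Tbx4 and another between Tbx3 and Tbx5 therefore count for both neighbours, and each was counted once in the totals.

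An interval of one sample that had 1 bp or more in common with an interval of the other was called shared. Shared intervals were found for 3 of the 7 genes, namely Tbx18 with 7, Tbx4 with 3 and Tbx15 with 1. Where at least 50% of both intervals had to overlap, these counts were 3, 1 and 1. Under the 1 bp rule, 3.41% of all 21757 protein-coding genes had a shared interval. A validation interval was present for 6 of 7 genes, against 15.1% of all genes, and a first-ChIP interval also for 6 of 7, against 6.04%. Long domains hold more intervals, and the median domain was 432 kb for the 7 genes against 67.3 kb for all genes. The 2 counts of 6 of 7 were not matched for domain length. For shared intervals only, the genes were also set against domains of like length. Over 500 kb, Tbx15 and Tbx18 but not Tbx3 had a shared interval (2 of 3), against 19.6% of such genes. From 100 to 500 kb, Tbx4 but not Tbx5 or Pitx1 had one (1 of 3), against 3.73%. Under 100 kb, Tbx2 had none, against 0.895%.

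Per length of domain, the 7 genes together carried 13.2 validation and 5.88 first-ChIP intervals per Mb. All protein-coding domains together carried 1.70 and 0.486 per Mb, so the 7 genes stood at 7.76 and 12.1 times these values. Without Tbx18, the other 6 genes carried 9.61 and 4.0 per Mb, or 5.65 and 8.23 times the values over all domains. For the validation ChIP the order was Tbx2 (33.2 per Mb), Tbx18 (21.5), Tbx15 (19.6), Tbx4 (18.5), Tbx3 (4.85), Tbx5 (4.63) and Pitx1 with none. The value of Tbx2 rests on 2 intervals in a 60.3 kb domain, with an exact 95% Poisson interval of 4.02 to 120 per Mb. Tbx18 had 13.6 to 32.2, Tbx15 10.4 to 33.5 and Tbx3 1.57 to 11.3. Tbx4 had 5.04 to 47.4. The Poisson intervals of the first 4 genes in this order overlap, so their order is within counting error. Those of Tbx18 and Tbx3 do not overlap, but only where every listed interval is counted as independent. The 23 validation intervals of Tbx18 fell into 13 groups, joined at gaps of at most 20 kb. The 2 genes are therefore not set apart by these Poisson intervals. For the first ChIP, Tbx4 led with 23.1 per Mb (7.51 to 54.0), ahead of Tbx18 with 10.3 (5.12 to 18.4), and these intervals overlap too. All such intervals cover counting error only, and neighbouring intervals are not independent.

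**Figure D1:**
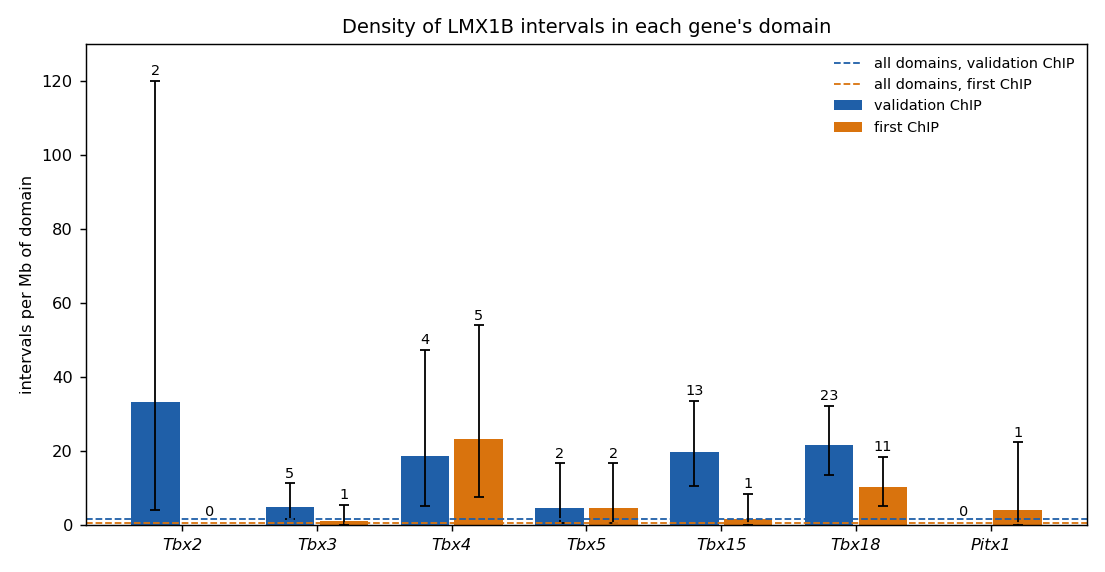
Intervals per Mb of domain (y axis) for each gene (x axis), with the validation ChIP left and the first ChIP right. Bars give the density, error bars the exact 95% Poisson interval where at least 1 interval was listed, numbers the count of intervals, and dashed lines the density over all protein-coding domains; Tbx18 has the highest counts, 23 and 11.

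The deposited summit score is a whole number per interval with no stated unit, so a score is read here only by its rank within its own list. Validation scores in the 7 domains ran from 9 to 31 with a median of 12, against a range of 6 to 55 and a median of 11 in the whole list. First-ChIP scores ran from 17 to 31 with a median of 20, against 12 to 86 and a median of 20. The top scores, all near Tbx18, were at or above 98.9% of the validation list and 92.3% of the first-ChIP list. In the validation ChIP, the 11 shared intervals scored 12 to 31 (median 20) and the unshared ones 9 to 27 (median 11); the medians over the whole list were 16 and 11. In the first ChIP, shared intervals scored 17 to 31 and unshared ones 17 to 21. Both had a median of 20, whereas over the whole list the medians were 22 and 18.

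The counting intervals of the shared percentages overlapped those of the rest of each list, which does not show that the percentages are equal. They treat neighbouring intervals as independent, although 7 of the 11 shared pairs lay in the domain of Tbx18. Of the 47 validation intervals 23.4% were shared (95% Wilson interval 13.6 to 37.2), against 15.5% (14.5 to 16.6) of the remaining 4454. Of the 21 first-ChIP intervals 52.4% were shared (32.4 to 71.7), against 55.0% (52.2 to 57.7) of the remaining 1266. Summits of the 11 pairs lay 0 to 360 bp apart with a median of 43 bp, and 9 pairs were within 100 bp.

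Tbx4, the hindlimb T-box gene (gene ID 21387, chromosome 11, 85886367 to 85916097 on mm10), had its 3 shared intervals far from the gene and close together. They lay 99.9, 101 and 111 kb beyond the higher-coordinate end, which is downstream since RefSeq places the gene on the plus strand. The first, at 86015636 to 86016434 in the validation ChIP, scored 12 there and 20 in the first ChIP, at 86015873 to 86016201. The second, at 86016758 to 86017469 in the validation ChIP, scored 21 there and 23 in the first ChIP, at 86016711 to 86017187. In both pairs the 2 summits coincided to the base, and both lay in the body of the long noncoding RNA gene Gm20759. The third, at 86026208 to 86027111 in the validation ChIP, scored 13 there and 17 in the first ChIP, at 86026487 to 86026821, with summits 16 bp apart. All 3 were nearer to Brip1, a DNA helicase gene of DNA repair, than to Tbx4, the closest at 31.5 kb, so distance alone does not assign them to Tbx4.

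The intervals nearer to Tbx4 were each listed in 1 sample only. The validation ChIP had one 10.2 kb before the gene, at 85875852 to 85876511 with a score of 14, which also lies in the domain of Tbx2. The first ChIP had one 3.75 kb inside the gene, at 85889859 to 85890381, and one 9.35 kb beyond its end, at 85925240 to 85925661, both with a score of 20. Of all protein-coding genes, 44 had at least the 5 first-ChIP intervals of Tbx4 and 73 at least its 3 shared ones, Tbx4 included in both counts.

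Pitx1 (gene ID 18740, chromosome 13, 55825044 to 55836190) lies upstream of Tbx4 in the hindlimb programme. Its 250 kb domain had no validation interval and 1 first-ChIP interval, at 55825293 to 55825651 with a score of 21, which is 0.428 kb inside the lower-coordinate end of the gene. The domain stops at Macroh2a1, the gene of the histone variant macroH2A, and limb enhancers of Pitx1 are known to lie beyond that gene. Within 500 kb of Pitx1 but outside the domain, there were 6 validation intervals and 1 first-ChIP interval. The shared one lay 324 kb from Pitx1 at 56159469 to 56160259 in the validation ChIP (score 12) and at 56159817 to 56160413 in the first ChIP (score 21). It was nearest to Tifab, at 13.8 and 13.6 kb.

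Tbx5, the forelimb T-box gene (gene ID 21388, chromosome 5, 119796514 to 119885220), had intervals in and at the gene that differed between the lists. The validation ChIP had one in the gene body, 30.9 kb from the nearer end, at 119827114 to 119827691. Its score of 27 was at or above 98% of that list, the highest of any unshared interval near the 7 genes, and it lay also in the noncoding gene Gm5563. The nearest first-ChIP interval was 23518 bp away, at 119803222 to 119803595, 6.89 kb inside Tbx5, with a score of 21. A weak validation interval, score 9, lay across the lower-coordinate end of the gene at 119795994 to 119796549. A further first-ChIP interval with a score of 21, at 120102703 to 120103110, was 218 kb from Tbx5 and 13.6 kb from Rbm19. Tbx5 thus had intervals in both lists but none in common.

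Tbx3 (gene ID 21386, chromosome 5, 119670534 to 119684724), which encodes a repressor, shares the interval across the end of Tbx5. Its 1031 kb domain, 905 kb of it towards the Mediator subunit gene Med13l, held 4 further validation intervals with scores of 10 to 13. Of these, 3 lay 695, 726 and 806 kb from Tbx3 and were nearer to Med13l. The fourth, at 119599733 to 119600201 with a score of 10, was 70.6 kb from Tbx3. The first ChIP had 1 interval, at 119670763 to 119671149 with a score of 18, which was 0.422 kb inside the lower-coordinate end of Tbx3. The noncoding gene Tbx3os1 overlaps that end, so the interval lay in both genes.

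Tbx2 (gene ID 21385, chromosome 11, 85832615 to 85841948), the paralogue of Tbx3, had 2 validation intervals and no first-ChIP interval. One, at 85830865 to 85831267 with a score of 9, was 1.55 kb before the gene in the noncoding gene 2610027K06Rik. The other is the one shared with the domain of Tbx4, 34.2 kb from Tbx2. The domain stops on the other side at Bcas3, whose 473 kb body held 7 validation and 2 first-ChIP intervals. Both first-ChIP intervals were shared, 119 and 200 kb from Tbx2, with scores of 24 and 17 in the validation ChIP and 30 and 22 in the first ChIP. They belong to the body of Bcas3 and were not counted for Tbx2.

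**Figure D2:**
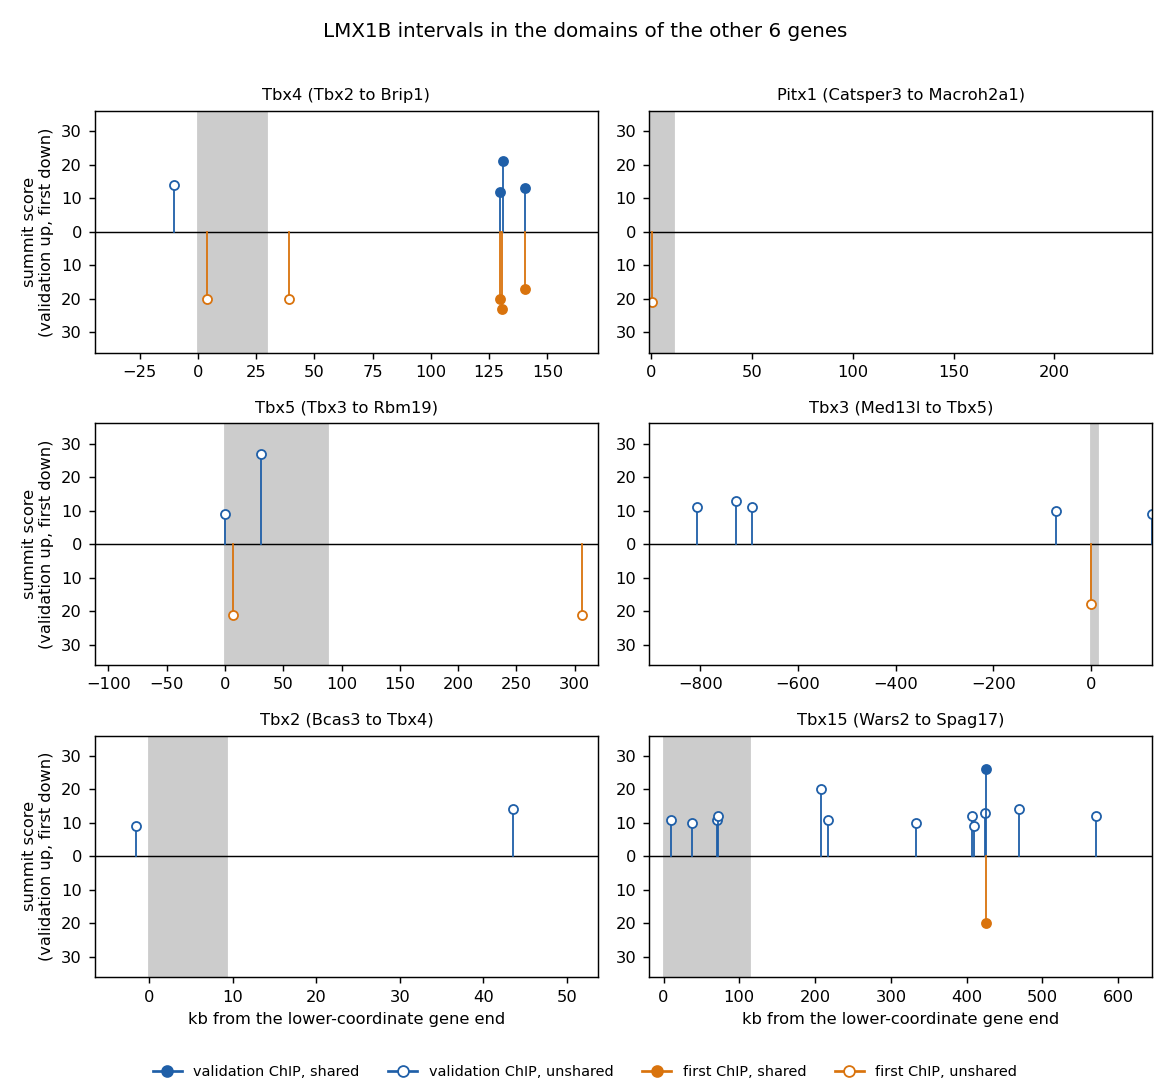
Intervals in the domains of 6 genes, each panel from one neighbouring gene to the other. The x axis is the distance of the midpoint from the lower-coordinate end of the gene (kb), the y axis the summit score (validation ChIP up, first ChIP down), the grey band the gene body, and filled points are shared intervals; filled points appear only beyond Tbx4 and Tbx15.

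Tbx15 (gene ID 21384, chromosome 3, 99240348 to 99354260), a gene of limb and trunk mesenchyme that is needed for the skeleton, had intervals listed mostly in the validation ChIP. The whole validation list has 4501 intervals and the first-ChIP list 1287, and the part of list length in this split was not tested. Of its 13 validation intervals, 4 lay in the gene body with scores of 10 to 12. The other 9 lay in the 531 kb between Tbx15 and Spag17, a cilium gene. The highest, at 99665811 to 99666569 with a score of 26 (at or above 97.7% of the list), was the only one shared. Its first-ChIP counterpart lay at 99665988 to 99666408 with a score of 20, and the summits were 43 bp apart. The pair was 312 kb from Tbx15 and 219 kb from Spag17. The next highest validation interval, at 99447206 to 99447802 with a score of 20, was 93.2 kb beyond the gene and had no first-ChIP interval within 218 kb. Of all protein-coding genes, 34 had at least 13 validation intervals, Tbx15 included, while 1315 had at least 1 first-ChIP interval.

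Tbx18 (gene ID 76365, chromosome 9, 87702800 to 87731260), which marks mesenchyme and acts in somite and ureter development, is the only protein-coding gene in a 1072 kb stretch. RefSeq places it on the minus strand, so the 596 kb up to Nt5e are upstream and the 447 kb down to Cep162 downstream. Only 4 protein-coding genes, Tbx18 included, had at least 23 validation intervals, 2 had at least 11 first-ChIP intervals and 4 had at least 7 shared ones. The 3 genes most like Tbx18, by the summed difference of these 3 counts over the 2 samples, were Dnm3, Pard3b and Zfp703. Dnm3, a dynamin gene, had 25 validation, 11 first-ChIP and 7 shared intervals in 551 kb. Pard3b, a cell polarity gene, had 23, 8 and 6 in 1703 kb, and the zinc finger gene Zfp703 had 20, 9 and 5 in 859 kb.

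Most of the Tbx18 intervals were remote. The validation ChIP had 12 upstream, 9 downstream and 2 in the gene body, at a median of 275 kb from the nearer gene end. The first ChIP had 5 upstream, 5 downstream and 1 in the gene body, at a median of 254 kb. Of the 7 shared pairs, 3 lay upstream and 4 downstream, and none was closer to the gene than 179 kb. The bodies of Cep162 and Nt5e held no interval of either list. The same remote intervals also fall in the domains of these neighbours: Cep162 counted 9 validation and 5 first-ChIP intervals and Nt5e 12 and 5. By distance, 10 of the 23 validation and 6 of the 11 first-ChIP intervals were nearer to Tbx18 than to another protein-coding gene.

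On the downstream side, 2 pairs had the highest first-ChIP scores of the region. The pair at 87376636 to 87377447 in the validation ChIP and 87376718 to 87377234 in the first ChIP was 326 kb from Tbx18, with scores of 20 and 31. The pair at 87443421 to 87444177 and 87443735 to 87444248, in the same order, was 259 kb away, with scores of 30 and 31. It had a neighbour 250 kb from the gene, at 87452395 to 87453935 and 87452631 to 87453068, with scores of 24 and 19. The last downstream pair, 179 kb from the gene at 87523795 to 87524364 and 87523923 to 87524250, scored 17 and 18 with the same summit. On this side, the validation scores of the 4 pairs were at or above 93.6%, 98.8%, 96.9% and 89.0% of their list.

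On the upstream side, the highest-scoring validation interval of the 7 genes lay 338 kb from Tbx18. It spanned 88068408 to 88070308 with a score of 31, and its first-ChIP counterpart, at 88068856 to 88069579, scored 27. It was the widest of a group of 5 validation intervals within 25.2 kb, from 88049115 to 88074298, where the first ChIP listed only this one. The other upstream pairs lay 254 kb away (87984592 to 87985432 in the validation ChIP, score 18, and 87984764 to 87985167 in the first ChIP, score 24) and 201 kb away (87931508 to 87932695, score 12, and 87932169 to 87932506, score 18). The pair at 201 kb had the largest distance between summits, 360 bp. The farthest upstream intervals, 2 validation intervals 484 and 491 kb from the gene, scored 10 and 11 and were unshared.

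**Figure D3:**
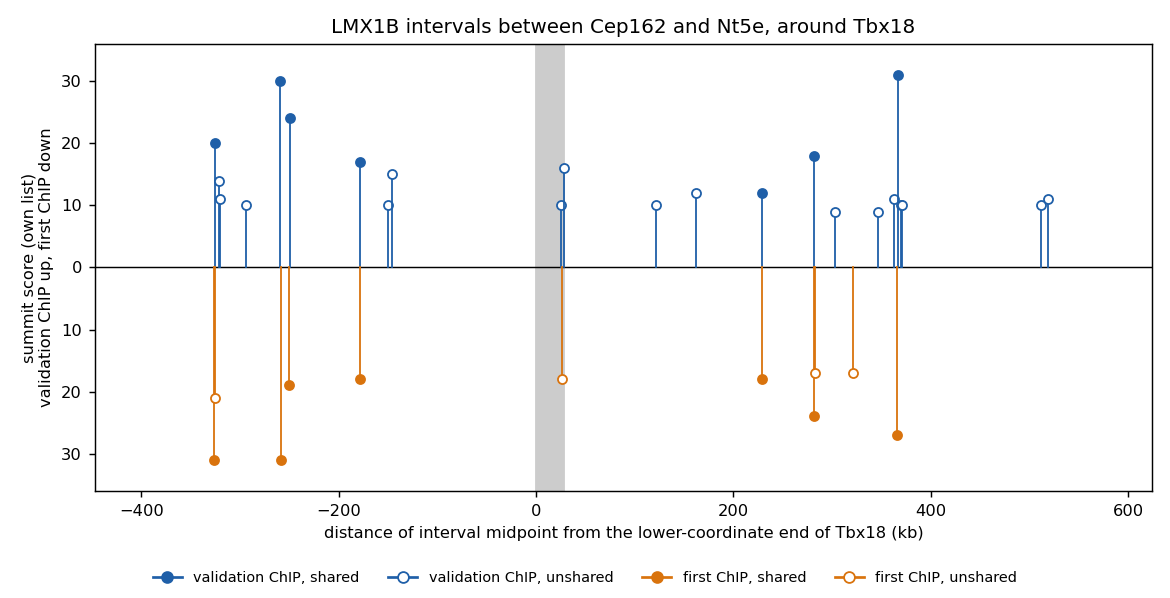
Intervals of the Tbx18 domain from Cep162 to Nt5e, with the distance of the midpoint from the lower-coordinate end of Tbx18 on the x axis (kb) and the summit score on the y axis (validation ChIP up, first ChIP down). The grey band is the gene body and filled points are shared intervals; the 7 shared pairs all lie outside the gene, at 179 to 338 kb from its nearer end.

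At the gene itself the lists differed in position. A validation interval at 87730873 to 87731464, with a score of 16, covered the RefSeq start site of Tbx18 at 87731260, and a second one at 87728203 to 87729091, with a score of 10, lay in the gene. The only first-ChIP interval there, at 87729126 to 87729504 with a score of 18, was 34 bp from the second and did not overlap it. RefSeq promoters (GRCm38.p6, 250 bases before to 50 after a start) were available for only 2 of the 7 genes, Tbx18 and Tbx4. The promoters of the other members were not examined. Both available ones are shown, in 5′ to 3′ direction of each gene. The Tbx18 promoter carries an interval, and capitals mark the 254 bases covered by the validation interval. The Tbx4 promoter shown, at a start site inside the gene body, carries none. The sequence at the lower-coordinate end of Tbx4 was not examined. The Tbx18 promoter is chr9:87731211-87731510, minus strand, and the Tbx4 promoter is chr11:85896515-85896814, plus strand.
Tbx18: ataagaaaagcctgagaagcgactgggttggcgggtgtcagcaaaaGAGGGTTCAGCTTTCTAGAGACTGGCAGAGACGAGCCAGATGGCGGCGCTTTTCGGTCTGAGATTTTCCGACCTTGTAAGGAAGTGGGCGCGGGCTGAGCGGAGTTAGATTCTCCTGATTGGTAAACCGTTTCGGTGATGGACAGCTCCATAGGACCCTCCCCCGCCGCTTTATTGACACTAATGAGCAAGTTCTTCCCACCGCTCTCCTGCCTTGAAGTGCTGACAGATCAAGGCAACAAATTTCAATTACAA
Tbx4: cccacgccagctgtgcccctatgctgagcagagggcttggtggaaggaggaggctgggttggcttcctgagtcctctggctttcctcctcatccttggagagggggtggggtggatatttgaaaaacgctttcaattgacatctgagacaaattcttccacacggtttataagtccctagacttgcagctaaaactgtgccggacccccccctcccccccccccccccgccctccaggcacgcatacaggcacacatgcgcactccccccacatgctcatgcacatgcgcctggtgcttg

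The RefSeq start site used for Tbx4, at 85896765 inside the gene body, was 20.6 kb from the nearest validation and 6.64 kb from the nearest first-ChIP midpoint. Of 32851 RefSeq promoters, 1.43% were overlapped by a validation and 0.813% by a first-ChIP interval. Both strands of each promoter were searched for 5 motifs. Neither promoter held TAATTA, a core of homeodomain and LIM homeodomain sites that 5.29% of promoters hold. Neither held TAATCC (PITX core, 7.06% of promoters), GGTGTGA (T-box core, 3.98%) or TAAT and ATTA spaced by 3 bases (paired homeodomain, 0.487%). CANNTG, the E-box core, matched once in the Tbx18 promoter, as CAGATG inside the covered stretch, and 6 times in the Tbx4 promoter; 72.3% of promoters hold it. TAATTA can overlap the paired motif, but neither was present. The shorter TAAT alone was not among the motifs searched. The covered stretch of the Tbx18 promoter holds TAAT and its reverse complement ATTA, and the share of all promoters with them was not counted. The remote intervals were not searched because no genome sequence was used here.

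The plot of score ranks shows where shared intervals stood within their lists. Among the 23 validation intervals near Tbx18, the 7 shared ones scored 12 to 31, and all but 1 of them were at or above 89.0% of the list. The 16 unshared ones scored 9 to 16. In the first ChIP, the 7 shared intervals near Tbx18 scored 18 to 31, and the 4 highest scores of that domain, 24 to 31, were all shared. The 4 unshared ones scored 17 to 21, so the ranges overlap in both lists.

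**Figure D4:**
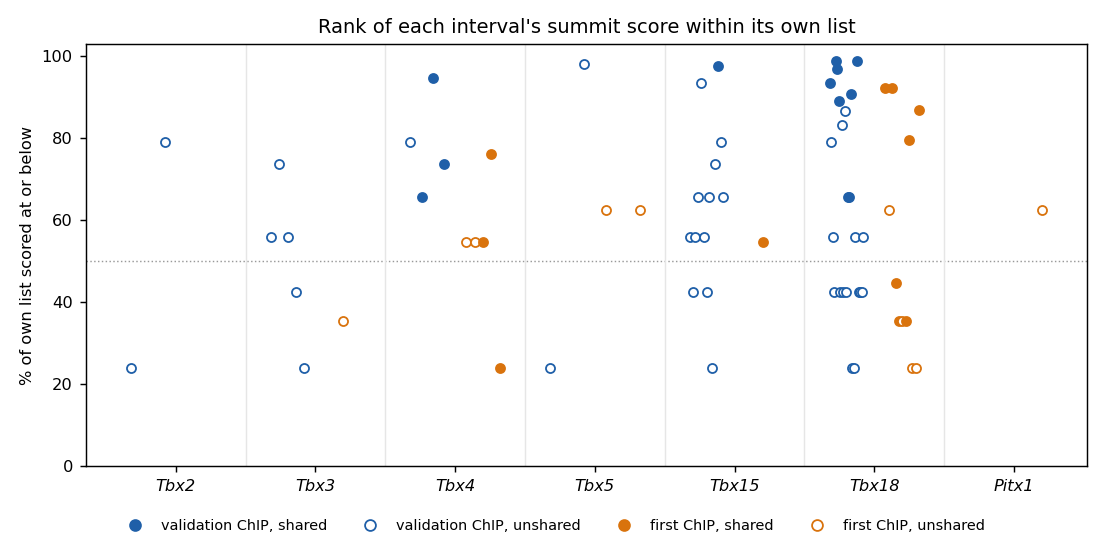
Rank of each interval's summit score within its own list (y axis, percentage of the list at or below it) for the 7 genes (x axis), validation ChIP left and first ChIP right. Filled points are shared and open points unshared intervals, and the dotted line marks 50%; most filled validation points near Tbx18 lie at the top.

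Other genes of the same families and of limb field and identity control were counted in the same way. Of 11 further T-box genes (Tbx1, Tbx6, Tbx10, Tbx19, Tbx20, Tbx21, Tbx22, Tbr1, Eomes, T and Mga), none had a validation interval and 2, T and Mga, had 1 first-ChIP interval each, against 15.1% and 6.04% of all protein-coding genes. Pitx3 had 1 validation interval and no first-ChIP interval. Of 13 limb field and identity genes, 6 had a validation, 4 a first-ChIP and 1 a shared interval, beside 15.1%, 6.04% and 3.41% of all protein-coding genes. The gene with a shared interval was Hand2, a posterior limb regulator, with 10 validation, 4 first-ChIP and 2 shared intervals, the nearer shared one 488 kb from the gene. Sall1 had 10 validation and 1 first-ChIP interval, and Fgf10, which Tbx5 is known to activate, had 4 validation intervals. Thus 3 of the 7 genes described here had a shared interval, against 1 of these 25 and 3.41% of all genes. The median domain was 432 kb for the 7 genes and 90.8 kb for the 25, and the part of domain length in this difference was not tested.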

How the data were processed

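The submitters' processing notes name BWA and build mm10; the program that called peaks, its cutoff and the BWA version were not given in the sources used here. The authors deposited, per ChIP sample, a list of intervals and a summit score per interval, a whole number whose scale is not stated. Other columns hold mm10 positions, printed here from 1. The validation sample's file also holds a copy of the first-ChIP list (1287 intervals), apart from its own list; it was counted once, and 1 summit differed, outside the 7 domains.

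Gene bodies came from RefSeq (GRCm38.p6, the chromosomes of mm10), without entries that start before 3 Mb. The named genes are the 7 members, their border genes, other list genes with a shared interval, and the 3 genes nearest to Tbx18 in counts; other genes were named after their values were seen. One gene of the planned list is not reported here. Members and lists were chosen with earlier results of these data known. No significance test was made: each group is 1 sample. Wilson and exact Poisson intervals (95%) cover counting error only. Depth is unknown. An unlisted interval is not shown to be absent, only not listed by the authors. Counting functions were tested on simulated data. Overlap, score, window and midpoint rules were varied. Python 3.11.15, numpy 2.4.6, pandas 2.3.3, scipy 1.17.1 and matplotlib 3.10.9 were used.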

Additional observations from a re-analysis of the deposited data

Results flagged for a closer look

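The deposited file of the validation sample holds a further list, named Active Regions, that no comparison above uses and that names no sample. Of its 735 regions, 14 lay in the domains of the 7 genes: 10 near Tbx18, 3 near Tbx4 and 1 near Tbx15. Each is identical to a first-ChIP interval, 11 of them shared. The remaining 3, all near Tbx18, lay 34 to 105 bp from a validation interval without overlapping it, and the nearest first-ChIP interval of the 7 genes outside the list was 6672 bp from one.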

How the results depend on the processing

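Of 19 recounts under other settings, 11 stayed within 1.5-fold of the counts given above (47 validation, 21 first-ChIP and 11 shared intervals, 3 genes with a shared interval). When each interval of a pair had to be covered to 50% or more, 5 shared intervals were left, still for 3 genes, with 3 in place of 7 for Tbx18 and 1 in place of 3 for Tbx4. With scores at or above the median of each list, 13 first-ChIP and 7 shared intervals were left, again for 3 genes, with 4 for Tbx18. With flanks of at most 100 kb there were 14 validation, 7 first-ChIP and 1 shared interval, that of Tbx4, so that 1 gene had one; Tbx18 then had 3 validation, 1 first-ChIP and 0 shared intervals. With 500 kb each way across neighbouring genes, 5 genes had a shared interval, Tbx2 and Pitx1 added. These changes follow from a stricter overlap rule, from fewer intervals or from shorter or longer windows. Chosen after seeing the data, a gap of at most 500 bp counted as shared gave 14 shared intervals, 10 of them near Tbx18. No paired analysis was possible because each ChIP is 1 sample and no test was made. Depth could not be assessed from interval lists, and the scores of the lists may differ in scale.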
